A study of Mus musculus with 3 samples.

Results

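Leukotrienes and prostaglandins are lipid mediators that leukocytes make from arachidonic acid. For leukotrienes, 5-lipoxygenase (Alox5) works with its membrane helper FLAP (Alox5ap) to make LTA4, which Lta4h turns into LTB4 and Ltc4s turns into LTC4. LTB4 attracts leukocytes through its receptor, encoded by Ltb4r1. For prostaglandins, the cyclooxygenases Ptgs1 (COX-1, mostly constitutive) and Ptgs2 (COX-2, mostly inducible) make PGH2, from which Hpgds makes PGD2, while PGE2 acts through the receptors EP2 (Ptger2) and EP4 (Ptger4). In the kidney, cyclooxygenase products are known for their roles in renal blood flow and in salt and water handling.

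These 10 genes were read from a count table of 32886 genes and followed across all clusters and compartments. They were chosen by pathway with earlier results of these data known, among them the higher Alox5 level in medullary resident macrophages. The cells were CD45+ cells sorted from kidneys of untreated wild-type male C57BL/6J mice aged 10 weeks, cut into the cortex, the inner medulla (IM) and the outer medulla (OM), and profiled by 10x single-cell RNA sequencing. There was no treated or mutant group. The experiment was run at 3 facilities (Aachen, Bonn and Hamburg), which served as the replicates, and the 9 sums of cells by compartment and facility are called libraries here. The sources used here do not say how many animals stand behind a library. With facility as a block, the p-values set the mean compartment difference against a residual spread. That spread holds how far compartment differences varied between facilities, and its estimate borrows from other genes. The facilities also differed in chemistry.

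The table held 20266 cells in 23 clusters named by the study. Median depth per cell was 887 UMIs in Aachen, 3290.5 in Bonn and 3011 in Hamburg, so low genes were read least well in Aachen. The cells of all 3 Hamburg compartments carried 1 common barcode suffix, whereas Aachen cells carried 6 suffixes (2 in each compartment) and Bonn cells 3 (1 in each compartment). Of the barcodes without suffix, 219 occurred in 2 or more libraries, in 441 cells (2.18%). Cluster names were set against summed levels of marker lists. The 6 neutrophil markers (S100a8 and S100a9 among them) gave 53887 CPM in Neutrophils and 1.59 CPM in B_cell_1. The 8 resident macrophage markers (C1qa and Adgre1 among them) gave 30309, 31131 and 42752 CPM in Macrophage_1, Macrophage_2 and Macrophage_3. They gave 756 CPM in B_cell_1. The 3 cDC2 markers gave 2406 CPM in cDC2 and 1206 CPM in Macrophage_3. T_cell_4 had 3876 CPM of T cell markers and NK_cell_1 16552 CPM of NK cell markers. Monocyte had 3920 CPM of monocyte markers, but also 4958 CPM of resident macrophage markers. The ILC2 cluster had 3215 CPM of the 7 ILC2 markers but also mast cell and basophil transcripts, described with Alox5. Levels are UMI counts of summed cells scaled to 1e+06 UMIs (CPM), a 3′ tag measure that needs no length correction, and sums of under 20 cells were left out.

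Ltc4s, Ptgs1 and Hpgds had most of their UMIs in resident macrophages, and Alox5 is the gene whose level there differed most between compartments, so their promoters are shown, with that of Ptgs2, whose level was highest in Neutrophils. Each run is 300 bases, from 250 bases before to 50 bases after the RefSeq start site (GRCm38.p6), 5′ to 3′ on the gene's strand. Capitals mark matches to GAGGAA, a core of sites bound by the myeloid factor PU.1, and to GGGCGG, the GC box, on either strand.
Alox5, chr6:116461129-116461428, minus strand: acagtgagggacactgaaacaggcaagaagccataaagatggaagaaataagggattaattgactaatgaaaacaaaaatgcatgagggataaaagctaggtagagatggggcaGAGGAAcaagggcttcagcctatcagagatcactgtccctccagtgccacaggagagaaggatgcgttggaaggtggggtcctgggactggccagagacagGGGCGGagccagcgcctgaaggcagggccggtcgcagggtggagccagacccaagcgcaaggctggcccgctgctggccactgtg
Ltc4s, chr11:50238483-50238782, minus strand: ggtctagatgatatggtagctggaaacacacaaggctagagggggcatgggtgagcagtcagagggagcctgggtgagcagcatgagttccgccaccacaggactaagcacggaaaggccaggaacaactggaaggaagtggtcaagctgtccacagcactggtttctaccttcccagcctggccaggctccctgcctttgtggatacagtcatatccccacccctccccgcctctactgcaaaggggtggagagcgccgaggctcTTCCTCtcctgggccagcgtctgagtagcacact
Ptgs1, chr2:36230176-36230475, plus strand: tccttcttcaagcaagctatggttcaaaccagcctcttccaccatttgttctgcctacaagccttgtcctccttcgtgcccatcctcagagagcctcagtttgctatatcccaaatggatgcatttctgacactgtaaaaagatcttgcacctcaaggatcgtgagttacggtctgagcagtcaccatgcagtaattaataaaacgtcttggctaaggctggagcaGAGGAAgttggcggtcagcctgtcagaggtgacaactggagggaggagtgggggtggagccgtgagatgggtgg
Hpgds, chr6:65144681-65144980, minus strand: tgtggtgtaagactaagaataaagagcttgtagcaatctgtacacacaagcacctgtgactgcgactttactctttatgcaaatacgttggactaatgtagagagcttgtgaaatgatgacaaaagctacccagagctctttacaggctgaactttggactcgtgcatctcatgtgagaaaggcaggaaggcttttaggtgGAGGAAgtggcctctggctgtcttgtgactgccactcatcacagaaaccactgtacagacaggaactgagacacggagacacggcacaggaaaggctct
Ptgs2, chr1:150099781-150100080, plus strand: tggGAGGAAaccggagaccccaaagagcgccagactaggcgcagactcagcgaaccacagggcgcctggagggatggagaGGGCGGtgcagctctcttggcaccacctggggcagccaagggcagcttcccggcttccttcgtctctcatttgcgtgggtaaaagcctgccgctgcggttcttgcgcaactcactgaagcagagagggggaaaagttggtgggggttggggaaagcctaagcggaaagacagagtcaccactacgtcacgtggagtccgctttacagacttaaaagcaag

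All 5 windows held 1 GAGGAA match, which 28.3% of all promoter windows of this length held. GGGCGG was found in the windows of Alox5 and Ptgs2, and in 35.7% of all windows. Neither TATAAA (13.6% of all windows) nor the full cAMP response element TGACGTCA (1.79%) was found in any of the 5. Only exact matches were searched, so shorter or variant forms, such as the cgtca in the Ptgs2 window, were not covered. These matches are letters in a window and show no binding. Promoters were available for 9 of the 10 members, Alox5ap being the exception.

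**Figure D1:**
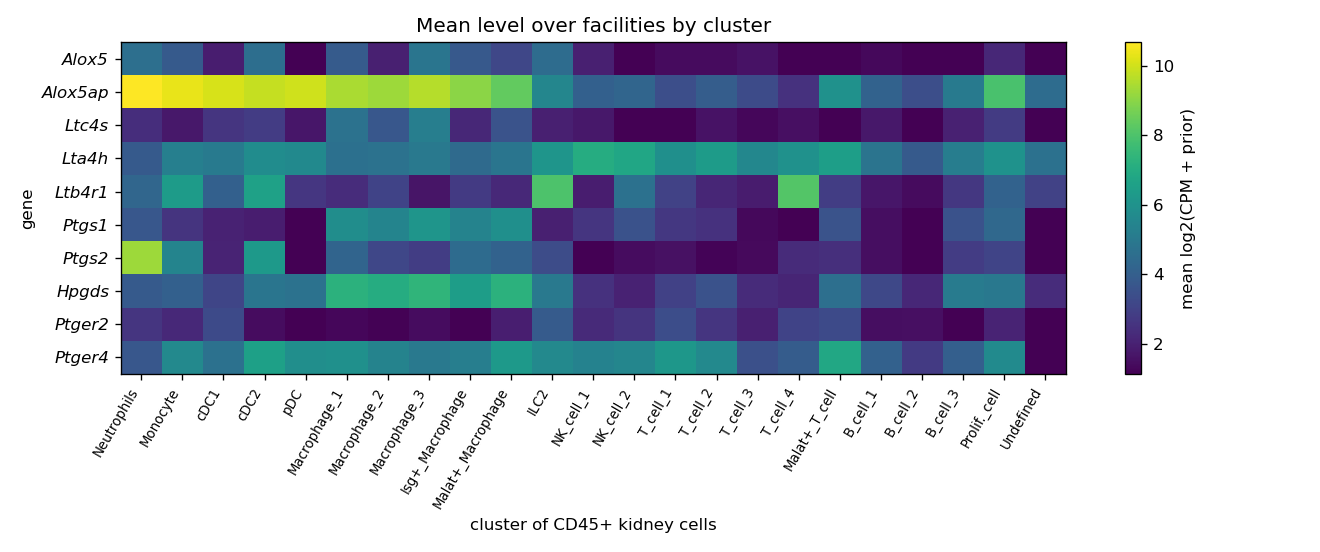
Heat map of the 10 genes (rows) in 23 clusters (columns), coloured by the mean over facilities of log2(CPM + a small prior). Alox5ap is bright in all myeloid clusters, Ltc4s, Ptgs1 and Hpgds in the macrophage clusters, Ptgs2 in Neutrophils, Ltb4r1 in T_cell_4 and ILC2, and Lta4h in NK and T cell clusters.

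The leukotriene genes were spread over different cells. Clusters were made from these same cells, so levels across clusters are given as a description, without a test. Alox5ap (mm10, chromosome 5, 149264767 to 149288153) was the most abundant member. Its level in Neutrophils was 1420 CPM in Aachen, 1653 in Bonn and 1868 in Hamburg. In Monocyte it was 1055, 1514 and 1430.5 CPM. Both clusters overlapped each other, and cDC1 (1111 CPM ± 121, SD, n = 3), pDC (1023 ± 130, n = 2, Bonn and Hamburg), cDC2 (919 ± 117, n = 3) and Macrophage_3 (791 ± 136) followed without a gap between neighbours. T_cell_1 lay at 45.1, 1.8 and 4.2 CPM. After each cell was thinned to 500 UMIs, 60% of 260 Neutrophils had an Alox5ap UMI (95% exact interval 53.8 to 66.0%), against 0.616% of 3574 B_cell_1 cells, a lineage taken as background. Without thinning the shares were 93.0% and 2.26%, at median depths of 2299 and 2429 UMIs. Intervals cover counting error only.

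Alox5 itself (chromosome 6, 116410077 to 116461178) was scarce, with 485 UMIs in all cells. Of these, 42.7% lay in resident macrophages (Macrophage_1, Macrophage_2, Macrophage_3 and Isg+_Macrophage summed), 18.1% in cDC2, 13.6% in Neutrophils and 11.5% in Monocyte. Macrophage_3 had 15.4, 27.2 and 42.3 CPM in Aachen, Bonn and Hamburg. Neutrophils had 0, 99.6 and 63.6 CPM, the 0 coming from the small Aachen cluster. cDC2 had 19.3, 13.5 and 37.0 CPM. These clusters overlapped, so no order among them holds over facilities. Macrophage_2, by contrast, stood at 2.0, 1.9 and 1.2 CPM, below each facility's Macrophage_3 value. B and T cell clusters lay between 0 and 3.7 CPM. Where Alox5 was detected in Neutrophils, 47 of 49 cells also had an Alox5ap UMI, and in Macrophage_1 78 of 81 cells did. The cells with Alox5 were deeper than their cluster (median 6097 against 1668 UMIs in Macrophage_1), which was not separated from the pairing.

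ILC2 showed Alox5 at 5.0, 36.2 and 40.4 CPM. Of the 35 Alox5 UMIs in these 424 cells, 23 came from the 40 cells that held a UMI of a mast cell or basophil marker (Cpa3, the mast cell carboxypeptidase, had 384 UMIs in 38 cells). Their summed level was 177 CPM. The other 384 cells had 12 UMIs, a level of 12.7 CPM.

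Ltc4s (chromosome 11, 50236461 to 50238616) had 394 UMIs, 78.2% of them in resident macrophages, which held 24.3% of all UMIs. Macrophage_3 led with 32.0, 38.6 and 33.9 CPM. Macrophage_1 followed with 28.2, 26.3 and 18.8 CPM, and Macrophage_2 with 18.3, 9.9 and 7.1 CPM. The 3 facilities did not overlap between these neighbours, so the order held in every facility. Ltc4s stood at 0 to 11.7 CPM in Neutrophils and at 4.0 to 6.4 CPM in cDC2.

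Lta4h (chromosome 10, 93453411 to 93484875) had the opposite layout. NK_cell_1 led with 65.4, 214 and 150 CPM and NK_cell_2 had 51.2, 177 and 138 CPM, followed by Malat+_T_cell and T_cell_2. Macrophage_1 had 11.8, 37.2 and 25.9 CPM. NK_cell_1 was above Macrophage_1 in each facility, although the facilities themselves differed: Aachen was the lowest in 18 of 20 clusters and Bonn the highest in 18. Thinned to 500 UMIs, 6.96% of NK_cell_1 cells had an Lta4h UMI (interval 5.04 to 9.33%), against 1.40% of B_cell_1 cells. Unthinned, these were 34.0% and 6.86%, at median depths of 2769.5 and 2429 UMIs.

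The LTB4 receptor gene Ltb4r1 (chromosome 14, 55765962 to 55768494) was highest in 2 lymphoid clusters. T_cell_4 had 273, 293 and 264 CPM, and ILC2 had 175, 352 and 265 CPM. Both overlapped each other and lay above every facility of the next cluster, cDC2, with 57.8, 153 and 92.2 CPM. Monocyte had 59.9, 103 and 87.6 CPM, above each value of T_cell_1 (2.7 to 12.6 CPM) and of Macrophage_3 (0 to 2.2 CPM). After thinning, 14.6% of 158 T_cell_4 cells had a Ltb4r1 UMI (interval 9.46 to 21.0%), 12.7% of ILC2 cells, and 0.0280% of B_cell_1 cells. Unthinned, the shares were 47.8%, 40.6% and 0.160%, at median depths of 3920, 2331.5 and 2429 UMIs.

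**Figure D2:**
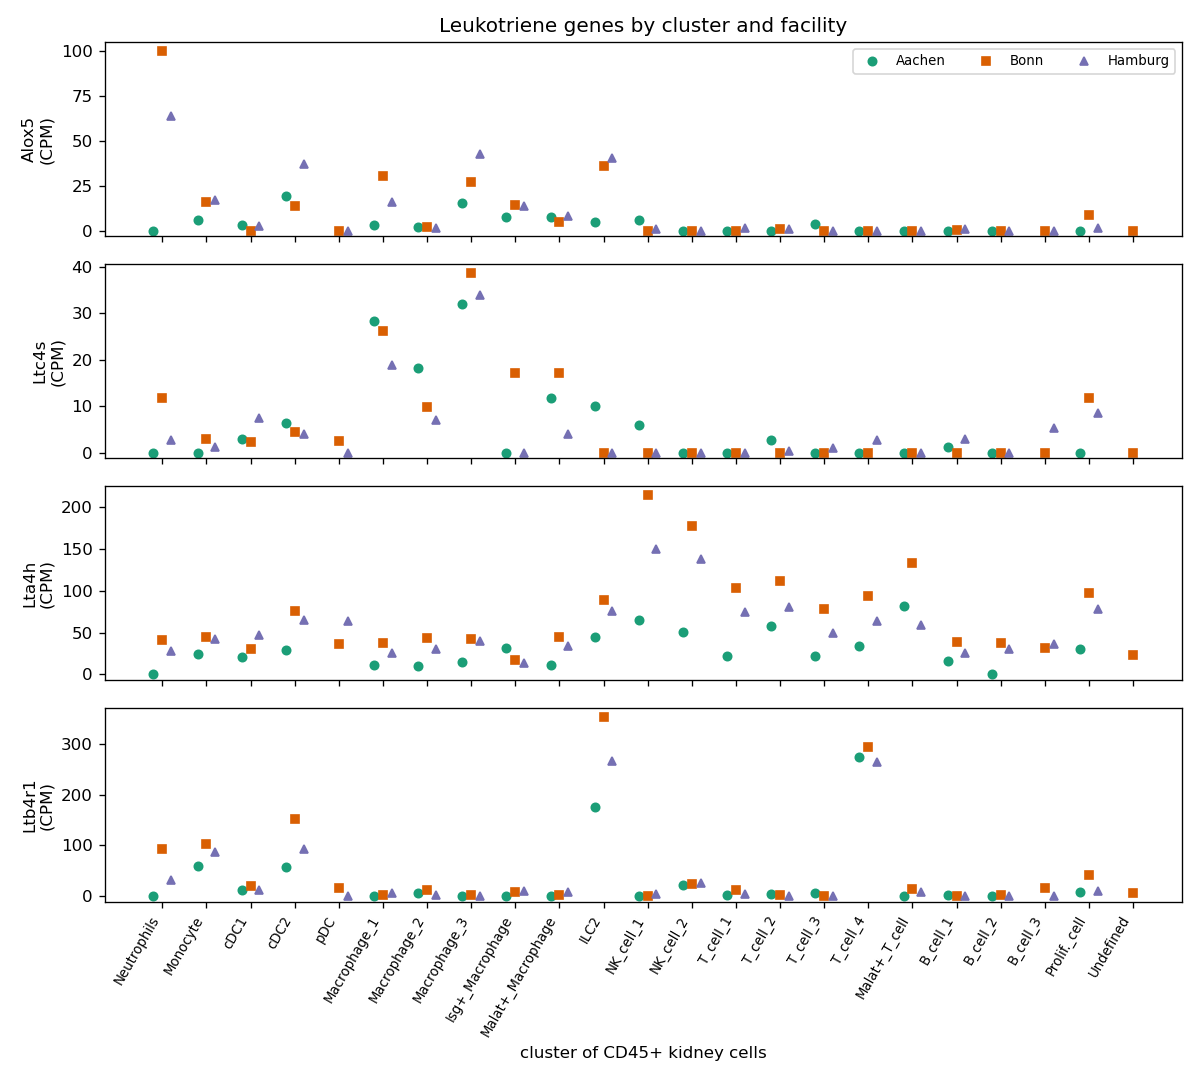
Level in CPM (y axes, linear) of Alox5, Ltc4s, Lta4h and Ltb4r1 in each cluster (x axis), with 1 point per facility. Ltc4s is highest in Macrophage_3 in all 3 facilities (32.0 to 38.6 CPM), and Ltb4r1 in T_cell_4 and ILC2 stands above 170 CPM everywhere.

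Among the prostaglandin genes, Ptgs1 and Hpgds shared the resident macrophages. Ptgs1 (chromosome 2, 36230426 to 36252272) had 78.2% of its 1244 UMIs there, and Hpgds (chromosome 6, 65117293 to 65144908) 76.2% of 2714. Macrophage_3 had 32.0, 112 and 80.5 CPM of Ptgs1 in Aachen, Bonn and Hamburg. Macrophage_1 had 25.1, 87.9 and 70.2 CPM, and Macrophage_2 24.4, 74.2 and 37.9 CPM. Within each facility the order was the same, but the facilities overlapped between clusters. Hpgds was steadier, with 128, 189 and 184 CPM in Macrophage_3 and 144, 168 and 140 CPM in Macrophage_1. Thinned, 7.42% of Macrophage_3 cells had an Hpgds UMI (interval 6.08 to 8.96%), against 0.364% of B_cell_1 cells, and unthinned 24.5% and 1.17%, at median depths of 1101.5 and 2429 UMIs. Among Macrophage_1 cells with Ptgs1, 54.5% of 275 also had Hpgds, against 27.3% of the whole cluster. The cells with Ptgs1 were again deeper, at a median of 4769 against 1668 UMIs.

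Ptgs2 (chromosome 1, 150100031 to 150108227) was highest in Neutrophils but was not confined to them, and Hamburg was its highest facility in nearly all clusters. Neutrophils had 426, 1061 and 527 CPM, above every value of every other cluster, the Aachen value resting on 6 UMIs in 25 cells. They held 32.0% of the 1852 Ptgs2 UMIs and 1.6% of all UMIs, while 26.7% of the Ptgs2 UMIs lay in cDC2, 17.1% in resident macrophages and 13.1% in Monocyte. cDC2 had 86.8, 16.5 and 292 CPM, and Monocyte 59.9, 7.7 and 131 CPM. Macrophage_1 had 11.8, 3.1 and 82.4 CPM. Hamburg was the highest facility in 17 of the 18 clusters with any Ptgs2 count, the exception being Neutrophils, where Bonn was. Thinned, 28.1% of Neutrophils had a Ptgs2 UMI (interval 22.7 to 34.0%), against 0.112% of B_cell_1 cells. Unthinned, 62.6% and 0.186% did, at median depths of 2299 and 2429 UMIs.

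Of the PGE2 receptors, Ptger4 (chromosome 15, 5206661 to 5244187, which overlaps Ttc33 on the other strand) was broad. cDC2 had 93.2, 48.9 and 164 CPM, T_cell_1 49.1, 59.5 and 123 CPM, and Macrophage_1 36.9, 43.8 and 127 CPM. Hamburg was the highest facility in all 20 clusters with 20 or more cells in each facility. The Malat+_T_cell cluster reached 301 CPM in Hamburg, against 61.1 and 81.5 CPM in Aachen and Bonn. Ptger2 (chromosome 14, 44988195 to 45003820) had only 240 UMIs, 51.7% of them in T cells. ILC2 had 5.0, 13.2 and 26.3 CPM and T_cell_1 had 2.7, 11.2 and 15.7 CPM, which overlapped.

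**Figure D3:**
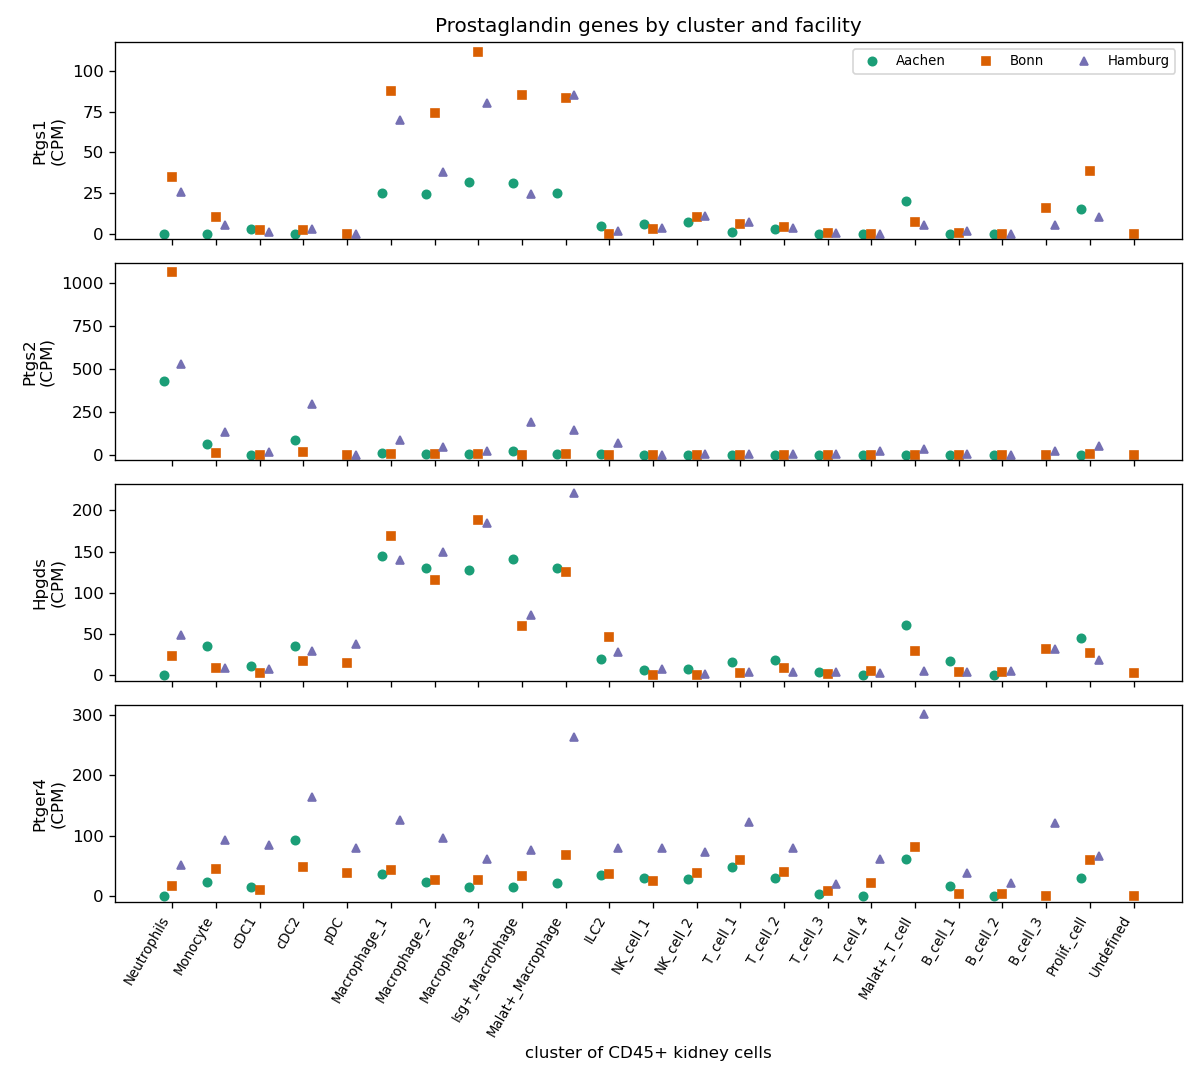
Level in CPM (y axes, linear) of Ptgs1, Ptgs2, Hpgds and Ptger4 in each cluster (x axis), with 1 point per facility. Ptgs2 in Neutrophils lies between 426 and 1061 CPM, and the Hamburg triangle is the highest Ptger4 point in all 20 clusters that have 3 points.

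The genes with the most similar layout were sought among 9528 genes over 20 clusters, by Pearson r of mean log2 levels, as a description. The points share libraries and depth. They were Slc6a12 (r = 0.87), Ier3 and Ifitm2 for Alox5, Il13ra1 (0.96), Ralb and Csf2ra for Alox5ap, Wtip (0.95), Asgr2 and Kcnk13 for Ltc4s, and Atp8b2 (0.91), Rnf166 and Gm11713 for Lta4h. For Ltb4r1 they were Lmo4 (0.90), Slc6a13 and Ffar2. For the prostaglandin genes they were Trim47 (0.96), Lilra5 and Tmem119 for Ptgs1, Hcar2 (0.94), Il1r2 and Tnfaip2 for Ptgs2, and Slco2b1 (0.96), Pla2g4a and Rab3il1 for Hpgds. Those of Ptger2 were Hspa4 (0.82), Odc1 and Gna13, and those of Ptger4 were Kif3b (0.88), Kif1c and Pik3cg. Among the members, Ptgs1 and Hpgds were most alike (r = 0.85), then Ltc4s and Hpgds (0.83).

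Compartments were compared next, starting with resident macrophages. The choice of genes knew the contrasts against cortex, so these are described without a test. Alox5 stood at 0, 2.7 and 2.1 CPM in the cortex libraries of Aachen, Bonn and Hamburg. It stood at 10.6, 9.9 and 20.9 CPM in OM and at 1.5, 30.2 and 19.9 CPM in IM. Each facility's OM and IM values were above its cortex value, and the Aachen IM value was below the Bonn and Hamburg cortex values. Macrophage_1 and Macrophage_2 of Aachen IM held 0 Alox5 UMIs. The Aachen IM value thus rested on the very few UMIs of 26 Isg+_Macrophage and 7 Macrophage_3 cells. Isg+_Macrophage held 4 Alox5 UMIs in the IM of Aachen and Hamburg together. For IM the agreement of facilities is weak. In the edgeR fit with facility as a block, the log2 difference of medulla (mean of OM and IM) from cortex was 3.22 ± 0.56 (SE), with 3.07 ± 0.64 for OM and 3.37 ± 0.58 for IM. Of all 8283 genes tested, 1.12% were called between medulla and cortex, 0.821% between OM and cortex and 0.0966% between IM and cortex. These shares are background only. The Bonn IM library held 113 of the 207 Alox5 UMIs in these cells, and without it the difference was 2.45.

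Ltc4s differed less. It had 17.2, 10.5 and 8.2 CPM in cortex, 31.8, 22.0 and 22.1 CPM in OM and 16.2, 31.3 and 13.9 CPM in IM. OM was above cortex in each facility, IM in Bonn and Hamburg only. The log2 difference of medulla from cortex was 1.20 ± 0.29, or 0.68 without the Bonn IM library. Alox5ap, from 474 to 664 CPM in cortex and 504 to 885 CPM in medulla, gave 0.25 ± 0.13. The others that could be fitted were Lta4h (0.25 ± 0.20), Ptgs1 (0.26 ± 0.18), Ptgs2 (0.54 ± 0.34), Hpgds (0.17 ± 0.17) and Ptger4 (-0.17 ± 0.19). Several of these small differences rested on the cells or facilities used. Ptgs2 gave 0.01 without cells holding UMIs of other lineages' markers. Ptgs1 gave -0.30 on the log2(CPM + 2) scale with Macrophage_1 and Macrophage_2 alone, weighted equally. Hpgds gave -0.17 without Bonn and Ptger4 gave 0.10 without Hamburg. Ltb4r1 and Ptger2 were too low in these cells.

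**Figure D4:**
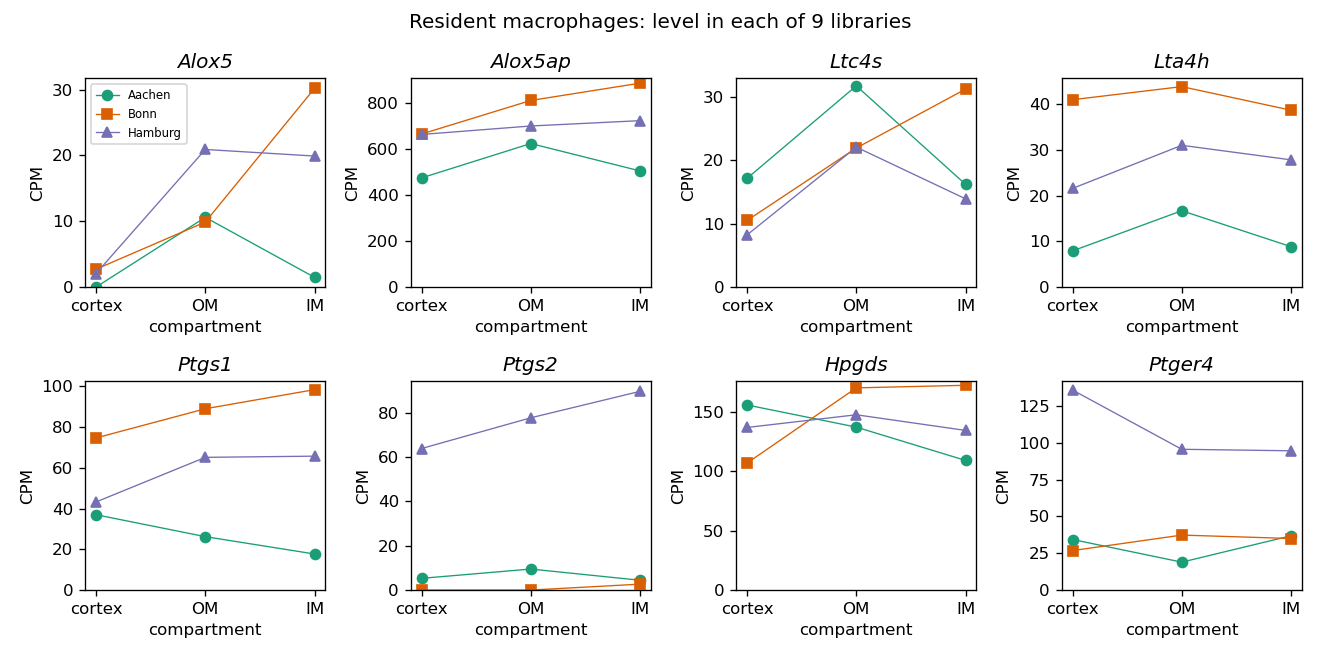
Level in CPM (y axes from 0) in resident macrophages by compartment (x axes), with 1 line per facility, for the 8 members that could be fitted. Alox5 is at most 2.7 CPM in the cortex libraries, and Ptgs2 lies far higher in Hamburg (63.8 to 89.6 CPM) than in Aachen and Bonn.

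The make-up of the class moved with compartment. Macrophage_3 was 0% of resident macrophages in the cortex of Aachen and Hamburg and 7.05% in Bonn cortex. In Aachen, Bonn and Hamburg it was 44.7%, 42.9% and 23.0% in OM, and 1.17%, 43.1% and 15.4% in IM. Macrophage_2 made up 83.3% of Bonn cortex and 60.6% of Aachen IM. Single clusters were therefore compared. In Macrophage_1, none of the 452 cortex cells had an Alox5 UMI, in a sum of UMIs where 3 counts would be 2.71 CPM. The same cluster had 29 UMIs in OM (6.6, 19.3 and 25.8 CPM in Aachen, Bonn and Hamburg) and 75 in IM (0, 32.5 and 16.1 CPM). Against 3 counts in the pooled cortex sum, the ratio of the pooled level was 6.64 in OM and 9.84 in IM. These ratios leave out the counting error of the medulla values and the spread between facilities. Bonn gave 66 of the 75 IM UMIs but only 24 of the cortex cells. Without Bonn in IM the IM ratio was 4.26, while without Hamburg in OM the OM ratio was 3.40. Aachen alone showed no Alox5 UMI in IM. In Macrophage_2 there were 4, 4 and 1 Alox5 UMIs in cortex, OM and IM, too few to compare. With Macrophage_1 and Macrophage_2 alone, weighted equally in every library, the Alox5 difference of medulla from cortex was 1.86 on the log2(CPM + 2) scale. The class as it was made up gave 2.08 on that same scale. Macrophage_3 and Isg+_Macrophage were left out of the 1.86, so cells and weights both changed. Within Macrophage_1, Ltc4s had 19.97, 0 and 10.8 CPM in cortex and 38.0, 32.2 and 21.1 CPM in OM and 18.2, 27.1 and 23.2 CPM in IM. OM was above cortex in each facility and IM was not in Aachen, and the Bonn cortex value came from 24 cells.

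**Figure D5:**
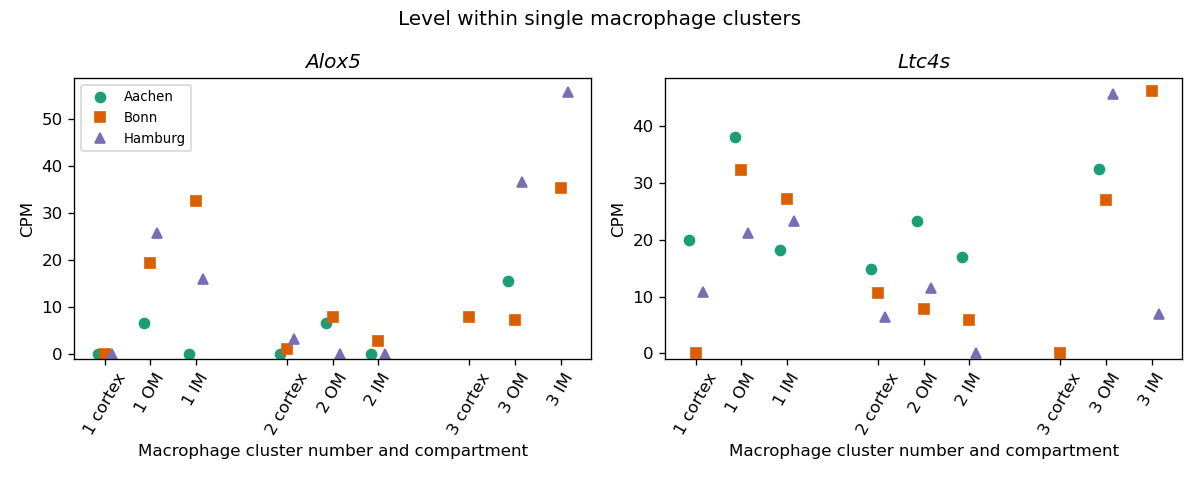
Level in CPM (y axes) of Alox5 and Ltc4s in Macrophage_1, Macrophage_2 and Macrophage_3 by compartment (x axis, cluster number and compartment), with 1 point per facility and at least 20 cells per point. All 3 cortex points of Alox5 in Macrophage_1 are at 0, and the OM points lie between 6.6 and 25.8 CPM.

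Summed marker levels of other cell types moved with these differences. The summed level of 12 kidney epithelium markers in resident macrophages was 37 to 61 CPM in the cortex libraries and 84 to 798 CPM in the medulla libraries. The 5 platelet markers gave 60 to 108 CPM in cortex and 128 to 485 CPM in medulla. However, Ppbp, Itga2b and Gp1bb were at 0 in Macrophage_2 and Macrophage_3, where the sum came from Pf4 and Gp9 alone. In Macrophage_1 only Gp1bb was at 0, and the 5 markers gave 195 CPM. In Isg+_Macrophage Itga2b, Gp9 and Gp1bb were at 0. The part of platelet RNA in the class sums was not tested. The 6 neutrophil markers, from cells that also carry Alox5, gave 9 to 28 CPM in cortex and 13 to 40 CPM in medulla, and mast cell markers at most 10 CPM. The part of RNA from other cells in the Alox5 difference was not tested.

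Between OM and IM of resident macrophages, a contrast that was tested, 0 of 8 members were called at an adjusted p of 0.05 (edgeR quasi-likelihood test with Benjamini-Hochberg adjustment), 0 had an unadjusted p below 0.05, and DESeq2 also called 0. Over all genes 0% were called. Alox5 differed by -0.30 ± 0.44 on the log2 scale (OM against IM), and its direction was not shared by the facilities.

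Outside macrophages, 0 of 100 tests of members in T cells, B cells, NK cells, cDC2 and monocytes were called by edgeR, 8 had an unadjusted p below 0.05, and DESeq2 also called 0. The contrasts of a gene share libraries, so these tests are not independent. The 8 were not set against the share of all genes with such a p, so no excess can be read from them. In T cells, 6 members were tested and 0.0117% of all genes were called between medulla and cortex (0.0234% for OM and 0.0352% for IM against cortex, 0% for OM against IM). Ltb4r1 in T cells stood at 7.5, 13.8 and 11.1 CPM in cortex, 14.2, 18.3 and 20.2 CPM in OM and 14.96, 19.9 and 13.8 CPM in IM. Each medulla value was above its own facility's cortex value, yet with a log2 difference of 0.62 ± 0.23 the adjusted p was 0.704. The T_cell_4 cluster, where Ltb4r1 was highest, held 163 of the 226 Ltb4r1 UMIs of T cells, and its share of the T cells was 1.89%, 1.92% and 2.81% in cortex, 2.93%, 1.69% and 5.92% in OM and 3.71%, 5.5% and 2.97% in IM. Without it, Ltb4r1 stood at 5.8, 6.4 and 2.5 CPM in cortex, 4.9, 9.3 and 1.8 CPM in OM and 2.4, 6.1 and 2.5 CPM in IM, and medulla no longer exceeded cortex in each facility. Ptger2 in T cells differed by 0.80 ± 0.33, with an adjusted p of 0.798. Its direction was not shared, with log2 differences of -0.61, 0.85 and 0.65 in Aachen, Bonn and Hamburg.

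In cDC2, 7 members were tested, against a background of 0.271% called for medulla, 0.113% for OM and 0.0903% for IM against cortex and 0.135% for OM against IM. Alox5 stood at 41.1, 7.8 and 7.5 CPM in cortex, 22.6, 32.6 and 41.9 CPM in OM and 0, 11.8 and 46.3 CPM in IM. Medulla exceeded cortex in Bonn and Hamburg but not in Aachen, where 3 UMIs made up the cortex value. The log2 difference was 1.25 ± 0.58, with an adjusted p of 0.949. In NK cells, where the Bonn OM library had 19 cells and was left out, Ptger4 in IM against cortex gave -0.92 ± 0.35 with an adjusted p of 0.657. The direction was not shared, with log2 differences of -0.37, 0.14 and -1.13 in Aachen, Bonn and Hamburg. The NK background was 0.623% for medulla, 0.791% for OM and 0.101% for IM against cortex and 0.185% for OM against IM. In B cells (4 members tested, background 0.0349%, 0.0465%, 0.0349% and 0.0232% in the same order) and in monocytes (5 members, 0.329%, 0.292%, 0.201% and 0.128%), no member had an unadjusted p below 0.05. In monocytes, Alox5ap differed by 0.06 ± 0.13 between medulla and cortex.

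Of 52 other genes of these pathways, 11 reached a mean of 100 CPM in at least 1 cluster. Hpgd, which breaks down prostaglandins, led in Macrophage_3 (946 CPM ± 401, SD, n = 3) and Macrophage_1 (654 ± 453). Pla2g7, which inactivates platelet-activating factor, was at 469 ± 39 CPM in Neutrophils and 236 ± 84 in Macrophage_3. Cyp4f18, which oxidises LTB4, led in Neutrophils (347 ± 103), as did Anxa1 (611 ± 225), the pro-resolving annexin, and its receptor gene Fpr2. The Fpr2 mean rested on Aachen, where 6 UMIs gave 426 CPM, against 82.1 and 35.0 CPM in Bonn and Hamburg and 49.2 CPM over all Neutrophils summed. Cysltr1, a receptor for LTC4-derived cysteinyl leukotrienes, was at 175 ± 128 CPM in ILC2 and 104 ± 28 in Macrophage_3. Ptges3 stood at 297 ± 79 CPM in NK_cell_2, 295 ± 48 in T_cell_4 and 289 ± 3 in T_cell_1, and Akr1b3 at 167 ± 31 in T_cell_2 and 164 ± 12 in Prolif._cell, with ranges over facilities that overlapped for each gene. Faah led in ILC2 (108 ± 35), and Ggt1 and Mgst3 in the Undefined cluster, which was found in Bonn alone with 20 or more cells. In the 5 tested classes, 21 of these genes entered 196 tests, of which 0 were called by edgeR and 23 had an unadjusted p below 0.05. The contrasts of a gene share libraries, so these tests are not independent. The 23 were not set against the share of all genes, so no excess can be read from them. The lowest adjusted p was 0.121, for Anxa1 in T cells, which differed by -0.78 ± 0.15 between medulla and cortex. In resident macrophages, 0 of 19 were called between OM and IM.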

How the data were processed

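CD45+ cells of cortex, OM and IM were sequenced on the 10x platform at 3 facilities. Per the submitters' processing notes, Cell Ranger, Seurat and mm10 were used. The authors deposited 1 table of cells by genes with each cell's compartment, cluster and facility. As deposited by the authors, its values are estimated counts (expected counts of UMIs): whole in Aachen and Bonn, fractional in Hamburg (0.118% of non-zero values whole), and rounded here. Cells held 201 to 3999 genes. Strand use in counting was not given in the sources used here. Doublets were not called here; one alternative leaves out cells with 2 or more UMIs of another lineage's markers.

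Counts were summed per class and library (at least 20 cells) and fitted with edgeR 4.0.16 (quasi-likelihood, TMM, filterByExpr, facility as block, Benjamini-Hochberg over all genes); SE is the log2 difference over the square root of F. DESeq2 1.42.0 was an alternative. The fit was tested on simulated data. Cells were thinned to 500 UMIs for shares, which left out 814 cells, 810 of them from Aachen. The members and gene lists were chosen with earlier results of these data known. Named genes were the members, pathway genes called in a test or reaching 100 CPM in a cluster, and the 3 genes most like each member. Promoters came from RefSeq (GRCm38.p6) and gene positions from GENCODE (GRCm38, the same assembly as mm10).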

Additional observations from a re-analysis of the deposited data

Results flagged for a closer look

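In 3 pairs of cell classes a member moved one way in every facility in one class and the opposite way in every facility in the other; the difference was not tested in any of them. The pairs came from a scan of all members in medulla against cortex and in OM against IM. The share of such pairs over all genes was not computed, so the 3 cannot be set against what differing signs alone would give. Ltb4r1 was higher in medulla than cortex in T cells (log2 differences of 0.866, 0.433 and 0.54 in Aachen, Bonn and Hamburg) and lower in NK cells (-0.199, -0.263 and -0.853), a difference of 1.05 between the classes. In NK cells, with 43 Ltb4r1 UMIs in all, the gene was too low to be fitted, Bonn medulla was IM alone, and OM was above cortex in Aachen (0.15). In T cells, 163 of 226 Ltb4r1 UMIs lay in T_cell_4, and without that cluster the mean difference over facilities was -0.15 on the log2(CPM + 2) scale, against 0.58 with it. Alox5ap in OM against IM was higher in T cells (0.0751, 0.909 and 0.529) and lower in monocytes (-0.533, -0.192 and -0.0794), a difference of 0.773. It was also higher in cDC2 (0.539, 0.164 and 0.103), which differed from monocytes by 0.537. In T cells Alox5ap rests on 2 to 45 UMIs per library.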

How the results depend on the processing

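The number of members called was 0 in T cells, B cells, NK cells, cDC2 and monocytes and 0 for OM against IM in resident macrophages under every alternative run, with or without the facility block (no replicate block) and without each facility. In resident macrophages, Alox5 was higher in medulla under every alternative that gave a value. Its log2 difference of 3.22 became 3.98 without cells holding UMIs of other lineages' markers. It was 2.45 to 3.63 when a facility or a single library was left out. The library exclusions were chosen after seeing the data, and the causes were not tested. Without the facility block the Alox5 difference was 3.13. With Macrophage_1 and Macrophage_2 alone, weighted equally, it was 1.86 on the log2(CPM + 2) scale, where the class as made up gave 2.08. Macrophage_3 and Isg+_Macrophage were left out of the 1.86, so cells and weights both changed. Ltb4r1 in T cells turned from 0.58 to -0.15 on the log2(CPM + 2) scale when the T_cell_4 cluster was left out, also chosen after seeing the data. After thinning to 500 UMIs Alox5 was too low to be fitted. Of the other pathway genes, 5 calls appeared with no low-count filter (Anxa1 in T cells and Dpep2, a dipeptidase, in cDC2), and 0 to 1 when a facility was left out. The leading cluster of 8 to 10 of the 10 members was the same when facilities were left out, cells were summed, cells were thinned or Hamburg was not rounded; Alox5 led in Neutrophils or cDC2 in 4 of the 6 alternatives. The Aachen depth limits all members at low level.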
